A study of Mus musculus with 36 samples.

Results

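Ribosome-bound RNA of striatal D1 neurons was compared between mice labelled IL34-KO and mice labelled control. All libraries labelled as D1 neuron pull-downs were used, 3 labelled IL34-KO and 4 labelled control, which makes 7 of the 36 samples at hand. The unbound striatal RNA left over by the same kind of pull-down, with 4 libraries labelled IL34-KO and 4 labelled control, served as the background tissue. The genotype given for the source was Drd1-eGFPL10a; Drd1-Cre; Il34-/- for the IL34-KO libraries and Drd1-eGFPL10a; Il34-/- for the control libraries. By these labels both groups carry the tagged ribosomal protein eGFP-L10a under Drd1 control, and the Il34-/- entry stands on both. Drd1-Cre stands on the IL34-KO libraries alone, so an effect of Il34 loss and an effect of the Cre transgene cannot be told apart in this comparison. The labels give no treatment and no age, and do not say that the libraries came from separate animals, so p-values measure only the spread between these libraries.

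D1 neurons are the spiny projection neurons of the direct striatal pathway, named after the dopamine receptor Drd1 and known for the peptides of Tac1 and Pdyn. Interleukin 34 (Il34) is a cytokine that forebrain neurons secrete. It binds Csf1r, the same receptor as Csf1, on microglia, and microglia of the striatum and cortex are known to need it for their maintenance. In the pull-down, antibodies against the tag collect the ribosomes of tagged cells with the RNA on them, so a gene that other cells express appears there only as far as their RNA is carried along.

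Levels are given in the deposited unit RPKM, in which reads are divided by gene length and library size. Recovered whole reads in genes came to 26.4 to 41.1 M in IL34-KO D1 libraries and 24.5 to 38.3 M in control D1 libraries. By the Y-linked gene Ddx3y, both sexes were present in each D1 group. The first IL34-KO and the first control D1 library stood apart from the others in the cortical neuron markers Slc17a7 and Neurod2. Slc17a7, the vesicular glutamate transporter of cortical neurons, had 30.3, 3.87 and 5.001 RPKM in the IL34-KO libraries, against 24.9, 4.77, 11.2 and 4.41 RPKM in the control libraries. Neurod2, a transcription factor of cortical neurons, had 10.5, 1.19 and 1.19 RPKM in IL34-KO libraries, against 8.33, 0.950, 2.59 and 0.986 RPKM in control libraries. Each group thus held 1 library of this kind. The sum of all 12 cortical markers listed was 570 to 705 RPKM in IL34-KO and 571 to 703 RPKM in control D1 libraries, with the first IL34-KO library the highest of its group and the first control library at 603 RPKM, within its group's range. The median difference of the cortical markers tested, on the log2(RPKM + 1) scale, was 0.01 with all libraries. It was 0.45 without the first control library and -0.23 without the first IL34-KO library.

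Il34 itself was not lower in the D1 libraries labelled IL34-KO. It had 11.1, 9.84 and 9.90 RPKM in IL34-KO libraries, against 6.56, 9.87, 9.19 and 10.5 RPKM in control libraries. The groups overlapped, the first control library being the lowest of all. The difference was 0.18 ± 0.14 (SE) on the log2(RPKM + 1) scale, with a 95% interval of -0.13 to 0.50. In unbound RNA, Il34 had 3.14, 2.29, 2.02 and 2.61 RPKM in IL34-KO libraries and 2.57, 2.66, 2.80 and 3.37 RPKM in control libraries, a difference of -0.14 ± 0.11. Among control libraries it was higher in the D1 pull-down than in unbound RNA by 1.37 ± 0.13, while the median of all genes was 0.81 in that comparison. The level of the targeted gene therefore does not show the loss that the label names. It is a sum over the whole gene, the labels do not say which part of Il34 was deleted, and the control source label reads Il34-/- as well, so this level cannot check a deletion of single exons. All directions below follow the labels.

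Of the 10 genes listed around this ligand and its receptor, 4 reached a mean of 1 RPKM in the D1 pull-down, and none passed the test. Besides Il34 they were Kitl, the ligand of the receptor Kit (-0.19 ± 0.13), Ptprz1, a receptor phosphatase that also binds Il34 (0.15 ± 0.12), and Tyrobp, an adaptor of microglial receptors (-0.36 ± 0.16). Csf1 had 0.807, 0.445 and 0.191 RPKM in IL34-KO and 0.372, 0.474, 0.439 and 0.333 RPKM in control D1 libraries. Csf1r had 0.607, 0.653 and 0.418 RPKM in IL34-KO and 0.641, 0.772, 0.630 and 0.856 RPKM in control D1 libraries. Both were below the level required for testing, and their groups overlapped.

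Across the transcriptome of D1 neurons, Flrt2 was the gene that passed the test. It was higher in the IL34-KO libraries. Of 10452 genes averaging 1 RPKM or more in these 7 libraries, limma with Benjamini-Hochberg adjustment called 1, or 0.00957%, as higher and 0 as lower at an adjusted p under 0.05. An unadjusted p under 0.05 was reached by 160 genes (1.53%), where chance alone would give about 523. Of these 160, 133 (1.27% of all genes) were higher and 27 (0.258%) lower in IL34-KO. Without a test, 61% of all genes were higher and 39% lower, the shares to set beside counts of list members below. The gene with the second smallest p had an adjusted p of 1.00.

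Flrt2 (ENSMUSG00000047414, on chromosome 12) encodes a membrane protein with leucine-rich repeats that acts as an adhesion and guidance ligand, binding Unc5 receptors and latrophilins. It had 19.3, 17.03 and 26.1 RPKM in IL34-KO D1 libraries, against 7.89, 7.51, 8.07 and 8.70 RPKM in control D1 libraries. The control libraries lay close together, and every IL34-KO library was above every control library. Such a lack of overlap, with IL34-KO above, holds for 202 of all genes tested, or 1.93%. The means were 20.8 ± 4.74 RPKM in IL34-KO (SD, n = 3) and 8.04 ± 0.496 RPKM in control libraries (SD, n = 4). The difference was 1.25 ± 0.13 (SE) on the log2(RPKM + 1) scale, 2.38-fold, with a 95% interval of 0.96 to 1.55 and a limma adjusted p of 0.0224.

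The call of Flrt2 was lost without some single libraries, and its size changed less. Without any 1 of the 4 control libraries its adjusted p was 0.0947 to 0.151. Without the first IL34-KO library it was 0.124, without the second 0.0229 and without the third 0.0327. Without both libraries high in Slc17a7 and Neurod2 the difference was 1.28, with an adjusted p of 0.220. With no filter on low values, 18361 genes were tested and the adjusted p of Flrt2 was 0.441. Over all settings the difference stayed between 0.97 and 1.38.

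In unbound striatum, Flrt2 had 9.14, 6.90, 5.85 and 10.7 RPKM in IL34-KO libraries, against 6.27, 5.34, 5.75 and 5.004 RPKM in control libraries. The third IL34-KO library lay within the control range and the other three above it. The difference was 0.45 ± 0.15, with an unadjusted p of 0.0109 and a limma adjusted p of 1.00. The difference between fractions, D1 pull-down minus unbound, was 0.81 ± 0.22, with an unadjusted p of 0.00182 and an adjusted p of 1.00, so a larger change in the pull-down was not called in this unpaired fit. In control libraries Flrt2 was higher in the pull-down than in unbound RNA by 0.46 ± 0.09, less than the median of all genes (0.81).

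**Figure D1:**
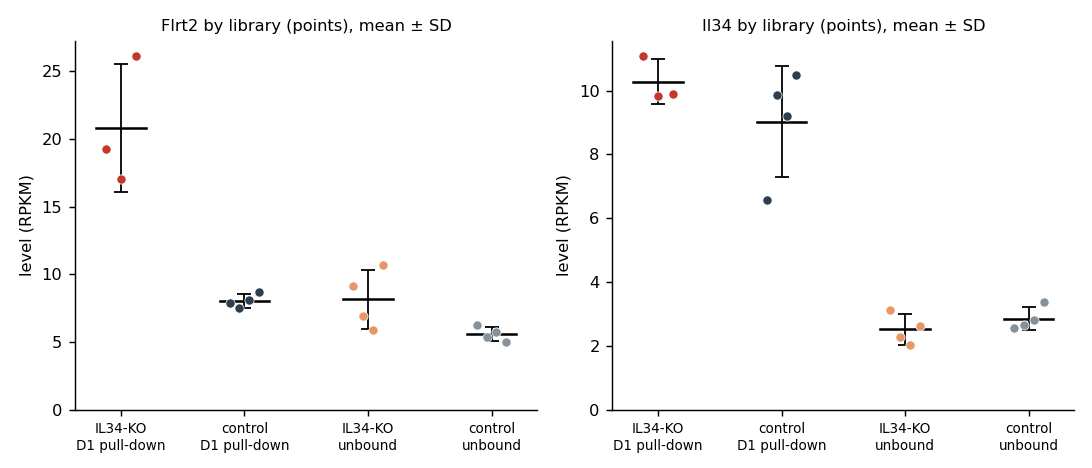
Level of Flrt2 (left) and Il34 (right) in RPKM in each library of the D1 pull-down and of unbound striatum, with 1 point per library, a line at the mean and bars of 1 SD. Flrt2 is at 17.03 to 26.1 RPKM in the IL34-KO D1 libraries and at 7.51 to 8.70 RPKM in the control D1 libraries, while the Il34 points of both groups overlap.

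Genes beside Flrt2 on chromosome 12, by their order in RefSeq's annotation of GRCm38.p6, differed little. Ston2 differed by 0.03, Sel1l by -0.02 and Galc by -0.05, while Gpr65 and Kcnk10 were below 1 RPKM. Among relatives and partners of Flrt2, chosen after its value was seen, none passed the test. Flrt1 had 11.3, 11.3 and 11.03 RPKM in IL34-KO and 8.06, 10.9, 9.22 and 14.1 RPKM in control libraries, a difference of 0.10 ± 0.15. Flrt3 had 18.6, 24.3 and 22.4 RPKM in IL34-KO and 22.1, 25.8, 26.7 and 24.4 RPKM in control libraries, a difference of -0.18 ± 0.11. Differences were 0.15 for Unc5a, 0.09 for Unc5b and 0.00 for Unc5c, all receptors of netrins and FLRT proteins. They were 0.20 for Lphn1, -0.04 for Lphn2 and -0.05 for Lphn3, the latrophilins. Their differences were all smaller than that of Flrt2, and the groups of Flrt1 and Flrt3 overlapped.

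**Figure D2:**
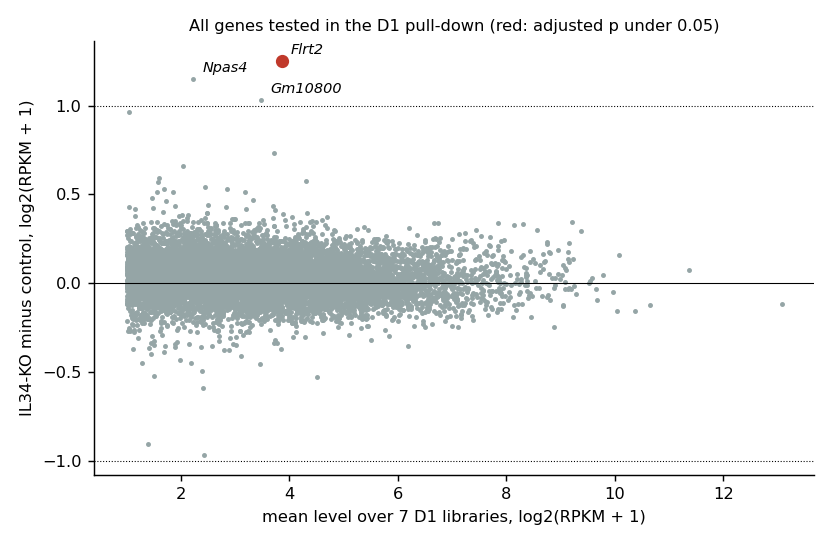
IL34-KO minus control on the log2(RPKM + 1) scale against the mean level in the 7 D1 libraries for the 10452 genes tested, with Flrt2 in red and dotted lines at 1 and -1. Nearly all genes lie close to 0, and 3 genes are beyond 1, of which Flrt2 passed the test.

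The other 2 genes with a difference beyond 1 did not pass. Npas4, a transcription factor induced by neuronal activity, had 2.92, 4.18 and 9.32 RPKM in IL34-KO libraries, against 0.645, 1.22, 0.854 and 6.57 RPKM in control libraries. The fourth control library overlapped the IL34-KO range, and the difference was 1.15 ± 0.49 with a limma adjusted p of 1.00. Gm10800, a predicted gene, had 17.6, 9.73 and 16.02 RPKM in IL34-KO libraries, against 5.08, 8.22, 3.45 and 10.8 RPKM in control libraries (1.03 ± 0.31, adjusted p of 1.00). The second smallest p belonged to Glb1 (ENSMUSG00000045594), named for the lysosomal beta-galactosidase. It had 2.98, 3.00 and 2.82 RPKM in IL34-KO libraries, against 1.93, 1.87, 1.71 and 1.91 RPKM in control libraries. These did not overlap, as for 1.93% of all genes in that direction, while a further line of the table with the same symbol was below 1 RPKM. Its difference was 0.46 ± 0.09, with an unadjusted p of 0.000540 and a limma adjusted p of 1.00. Gm10800 and Glb1 were chosen after their values were seen.

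The precision of the comparison bounds what could have been missed only on the log2(RPKM + 1) scale, which understates changes of low genes. The median gene had a 95% interval reaching 0.256 to either side of its estimate, and for 10375 genes (99.3%) the whole interval lay within -1 and 1. For low genes, an interval within -1 and 1 on this scale still leaves room for a change of 2-fold or more in RPKM. Differences ran from -0.14 at the 5th to 0.22 at the 95th percentile, with a median of 0.03. In simulated libraries of the same size and spread, 200 of 10452 genes were made to change. The same test found 85.5% of them when changed 2-fold and 97.0% when changed 4-fold. The adjustment is stricter where fewer genes change, and 1 gene was called here. In the D1 libraries, limma also gave fewer genes with an unadjusted p under 0.05 than chance would, 160 against about 523. Whether the simulated libraries share this shortfall was not tested. These shares therefore cannot tell how many changes of such size would be found in the D1 libraries.

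The D1 label of the pull-down was borne out by its marker genes. In control libraries all 13 listed D1 markers passed the test for a higher level in the pull-down than in unbound RNA, as did 84.7% of all genes, and their median of 1.84 stood beside 0.81 for all genes. Of 7 D2 markers tested, 6 were called lower in the pull-down, as were 6.83% of all genes. None of the 13 D1 markers passed the test between genotypes, 8 being higher and 5 lower in IL34-KO, with a median of 0.01. Over all genes, 61% were higher in IL34-KO. Tac1, the precursor of substance P, had 765, 990 and 641 RPKM in IL34-KO libraries, against 799, 742, 796 and 879 RPKM in control libraries. The IL34-KO values lay on both sides of the control values (-0.03 ± 0.14). Pdyn, the precursor of dynorphin, had 44.2, 63.2 and 44.2 RPKM in IL34-KO libraries, against 38.4, 57.4, 47.2 and 55.0 RPKM in control libraries, again with overlap (0.03 ± 0.16). The transcription factor Isl1 (0.07 ± 0.12) and the muscarinic receptor Chrm4 (0.05 ± 0.15) differed by less than their error.

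Drd1a, the D1 receptor gene, had 135, 275 and 151 RPKM in IL34-KO libraries, against 162, 147, 132 and 168 RPKM in control libraries, a difference of 0.23 ± 0.21. The second IL34-KO library was above all others, and the other two lay within the control range. Sfxn1, a mitochondrial serine transporter gene that is the next gene to the D1 receptor gene on chromosome 13 in RefSeq's GRCm38.p6, had 180, 912 and 150 RPKM in IL34-KO libraries, against 254, 277, 284 and 143 RPKM in control libraries. The same library was the highest by far. Among unbound libraries, Sfxn1 had 50.0, 228, 34.0 and 49.3 RPKM in IL34-KO and 64.9, 70.8, 76.1 and 47.9 RPKM in control RNA, again with 1 IL34-KO library far above the rest. Hrh2, the histamine H2 receptor gene that follows Sfxn1, averaged 1.55 RPKM in IL34-KO and 1.23 RPKM in control D1 libraries (0.20, unadjusted p of 0.105 by limma, adjusted p of 1.00). Cplx2, which lies further along on the same side, differed by -0.03 in the D1 libraries. The tag and the Cre are both driven from Drd1, and whether the reads of Drd1a and Sfxn1 include transgene RNA was not tested.

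Eya1, a transcriptional cofactor listed as a D1 marker, had 124, 156 and 179 RPKM in IL34-KO libraries, against 190, 170, 162 and 179 RPKM in control libraries (-0.21 ± 0.13). The first IL34-KO library was the lowest, and the groups overlapped. In unbound RNA, Eya1 had 28.2, 35.8, 2.32 and 38.9 RPKM in IL34-KO and 36.5, 40.3, 41.8 and 42.2 RPKM in control libraries. The third IL34-KO unbound library was far below all others, while its Drd1a level of 40.6 RPKM was within the range of the other unbound libraries. This is the same library whose Flrt2 level lay within the control range. Without it, the Flrt2 difference in unbound RNA was 0.57 ± 0.13, with an unadjusted p of 0.00123 and an adjusted p of 1.00. That step was chosen after the Eya1 value was seen. The labels give 4 unbound but 3 pull-down libraries for IL34-KO, with no entry that ties an unbound library to a pull-down, and whether the tissue of this unbound library carried the tag was not tested.

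**Figure D3:**
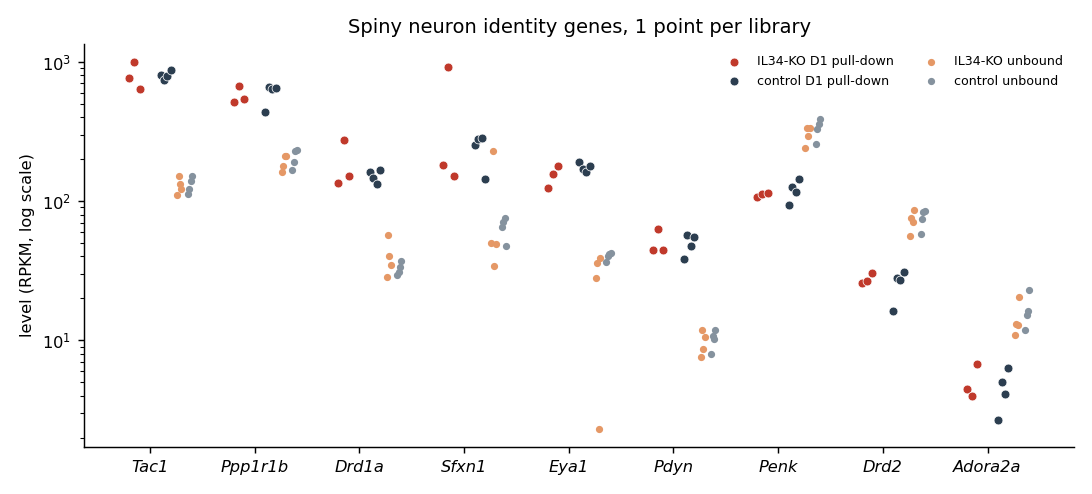
Level in RPKM, on a log scale, of genes that mark spiny neurons, with 1 point per library for IL34-KO and control D1 pull-downs (large points) and unbound RNA (small points). Tac1, Ppp1r1b, Drd1a, Sfxn1, Eya1 and Pdyn are higher and Penk, Drd2 and Adora2a lower in the pull-down than in unbound RNA, apart from 1 high IL34-KO unbound library for Sfxn1, and the genotypes overlap in the pull-down for all 9 genes.

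Markers of D2 neurons, the spiny neurons of the indirect pathway, gave no call in the pull-down, with 5 of 7 higher and 2 lower. Over all genes, 61% were higher. Under quantile scaling 3 of 7 were higher, and without both libraries high in Slc17a7 and Neurod2 2 of 7, with a median of -0.02. Drd2 had 25.7, 26.8 and 30.5 RPKM in IL34-KO libraries, against 16.1, 28.1, 27.1 and 30.8 RPKM in control libraries, a difference of 0.15 ± 0.19. Penk, the precursor of enkephalin, differed by -0.10 ± 0.13, and the adenosine receptor gene Adora2a by 0.15 ± 0.23.

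Genes that all spiny neurons share gave no call either, with 11 of 25 higher, beside 61% of all genes, and a median of -0.01. Ppp1r1b, which encodes the phosphatase regulator DARPP-32, had 518, 672 and 543 RPKM in IL34-KO libraries, against 436, 664, 634 and 646 RPKM in control libraries (-0.03 ± 0.16). The phosphodiesterase gene Pde10a differed by -0.11 ± 0.10, the signalling regulator Rgs9 by 0.05 ± 0.14 and the transcription factor Bcl11b by -0.12 ± 0.15. In the list of cAMP and cGMP signalling, 0 of 34 genes were called, 16 being higher. Pde4b, which degrades cAMP, had 39.4, 43.1 and 42.4 RPKM in IL34-KO libraries, against 44.6, 49.6, 52.3 and 44.4 RPKM in control libraries. All IL34-KO libraries were below all control libraries, as for 88 genes in all (0.842%), and the difference was -0.19 ± 0.09.

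Receptors for modulators and for GABA were the lists with the lowest medians besides microglia markers, with no member called. Of 16 dopamine, muscarinic, opioid and related receptor genes, 6 were higher and 10 lower, with a median of -0.10. Of all genes, 61% were higher. Oprk1, the receptor for dynorphin, had 5.07, 6.59 and 6.43 RPKM in IL34-KO libraries, against 9.12, 6.67, 7.003 and 9.03 RPKM in control libraries (-0.35 ± 0.13, limma adjusted p of 1.00). The groups did not overlap, by a narrow margin, as for 0.842% of all genes in that direction. Gpr149, a receptor without a known ligand, had 1.503, 2.03 and 1.68 RPKM in IL34-KO libraries, against 2.18, 2.76, 3.14 and 2.25 RPKM in control libraries (-0.38 ± 0.13, adjusted p of 1.00). Of 21 GABA genes 8 were higher, with a median of -0.08. Gabra2, a subunit of GABA-A receptors, had 14.7, 17.2 and 18.7 RPKM in IL34-KO libraries, against 19.0, 20.9, 27.4 and 33.8 RPKM in control libraries. The IL34-KO libraries were all lower, as for 0.842% of all genes, and the control libraries spread widely (-0.52 ± 0.18, adjusted p of 1.00). In unbound RNA, Gabra2 differed by -0.41 ± 0.18.

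Glutamate receptors, ion channels and the release machinery showed medians near 0 without a call. Of 26 glutamate receptor and scaffold genes 14 were higher, of 44 potassium channel genes 25, of 24 sodium and calcium channel genes 13, and of 32 vesicle fusion genes 16. The share over all genes was 61%. Of 42 axon guidance and adhesion genes, 15 were higher and 27 lower, with Flrt2 as the call. Sema3e, a repellent ligand of Plxnd1, had 4.67, 5.31 and 5.39 RPKM in IL34-KO libraries, against 6.42, 5.87, 6.81 and 5.82 RPKM in control libraries (-0.24 ± 0.10). Its groups did not overlap, as for 0.842% of all genes in that direction. Of 34 immediate early and activity genes 18 were higher, with a median of 0.00. Fos had 3.72, 4.03 and 3.37 RPKM in IL34-KO libraries, against 4.21, 3.53, 1.74 and 8.90 RPKM in control libraries, so the control values lay on both sides (-0.10 ± 0.33). Arc, a synaptic activity gene, differed by 0.29 ± 0.25 and Jun by -0.36 ± 0.19. In the adenosine and purinergic list 9 of 13 genes were higher and 0 were called. Adora1, the inhibitory adenosine receptor gene, differed by 0.04 ± 0.11, the ectoenzyme gene Nt5e, whose product makes adenosine, by -0.06 ± 0.16 and the ectoenzyme gene Entpd1, whose product degrades ATP, by -0.09 ± 0.14.

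Several lists had most members on one side without a call. Of 76 genes of cytosolic ribosomal proteins, 75 were higher in IL34-KO, with a median of 0.16, where 61% of all genes were higher and 39% lower, with a median of 0.03. Rpl23a had 25.2, 22.7 and 19.2 RPKM in IL34-KO libraries, against 13.9, 18.1, 17.7 and 17.3 RPKM in control libraries (0.40 ± 0.12, limma adjusted p of 1.00). Its groups did not overlap, as for 1.93% of all genes in that direction. Ribosomal protein genes have many near-identical pseudogene copies, so their levels are uncertain. Of 17 astrocyte markers 16 were higher, with a median of 0.20, and of 16 oligodendrocyte markers 14, with a median of 0.12. Apoe, a lipid carrier made by astrocytes, had 27.3, 23.5 and 18.6 RPKM in IL34-KO libraries, against 10.8, 22.5, 13.9 and 14.9 RPKM in control libraries, with overlap (0.58 ± 0.21, adjusted p of 1.00). The summed astrocyte markers had 284 to 426 RPKM in IL34-KO and 271 to 343 RPKM in control D1 libraries, the first IL34-KO library being the highest. Summed oligodendrocyte markers had 153 to 253 RPKM in IL34-KO and 144 to 199 RPKM in control D1 libraries, with the same library the highest.

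Without both libraries high in Slc17a7 and Neurod2, 59 of 76 ribosomal protein genes were higher, with a median of 0.04, beside 50.7% of all genes. The astrocyte median was then 0.06 (12 of 17 higher) and the oligodendrocyte median -0.09 (5 of 16 higher). Under quantile scaling of the libraries 49.3% of all genes were higher, and 74 of 76 ribosomal protein genes. Under median-ratio scaling these were 49.8% and 75 of 76. The 80 genes of the respiratory chain and ATP synthase had a median of 0.08, with 61 higher over all 7 libraries. Without both libraries high in Slc17a7 and Neurod2, 43 of the 80 were higher, with a median of 0.00. The 11 genes of the mitochondrial genome had a median of 0.22 with 9 higher, and 0.24 with 11 higher without both libraries. Their summed level of 2869 to 4592 RPKM in IL34-KO libraries lay within the 1769 to 5743 RPKM of the control libraries.

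The remaining lists had no call. Of the neuronal lists, 7 of 9 striatal interneuron markers, 6 of 10 cortical neuron markers, 8 of 21 neuropeptide and growth factor genes and 13 of 24 neurofilament and cytoskeleton genes were higher in IL34-KO. Of the stress and rhythm lists, 5 of 15 heat shock genes, 5 of 15 glucocorticoid-responsive genes, 9 of 13 apoptosis and DNA damage genes and 5 of 17 clock genes were higher. Of the lists for gene regulation and synthesis, 46 of 68 translation factor genes, 39 of 57 chromatin enzyme genes and 9 of 18 cholesterol synthesis genes were higher. Of 6 interferon and antigen presentation genes 3 were higher, among them Ifi27l1 with 7.61, 6.93 and 2.76 RPKM in IL34-KO libraries, against 3.24, 4.00, 3.12 and 3.18 RPKM in control libraries (0.54 ± 0.24). The third IL34-KO library lay below all control libraries. Few markers of other cells reached 1 RPKM in the pull-down, namely 4 of 10 for oligodendrocyte precursors, 2 of 16 for vessels, 2 of 13 for choroid plexus and ependyma, 1 of 10 for perivascular macrophages and 0 of 7 pituitary hormone genes. The 4 Y-linked genes listed followed the sex of each library.

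Many of these counts were smaller without both libraries high in Slc17a7 and Neurod2, when 50.7% of all genes were higher. Of the neuronal lists, 2 of 9 interneuron markers (median -0.03, against 0.07 with all libraries), 4 of 10 cortical neuron markers, 2 of 21 neuropeptide and growth factor genes and 9 of 24 neurofilament and cytoskeleton genes were then higher. Without the first IL34-KO library alone the interneuron median was -0.03. Of the lists for gene regulation and synthesis, 37 of 68 translation factor genes, 17 of 57 chromatin enzyme genes (median -0.02, against 0.04 with all libraries) and 6 of 18 cholesterol synthesis genes were higher. So were 6 of 25 genes shared by spiny neurons, 14 of 43 potassium channel genes, 9 of 24 sodium and calcium channel genes, 9 of 32 vesicle fusion genes, 6 of 13 adenosine and purinergic genes and 2 of 14 glucocorticoid-responsive genes. The receptor lists changed as well, the modulator receptors having 5 of 16 higher with a median of -0.05 and the GABA genes 10 of 21 with a median of 0.00.

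**Figure D4:**
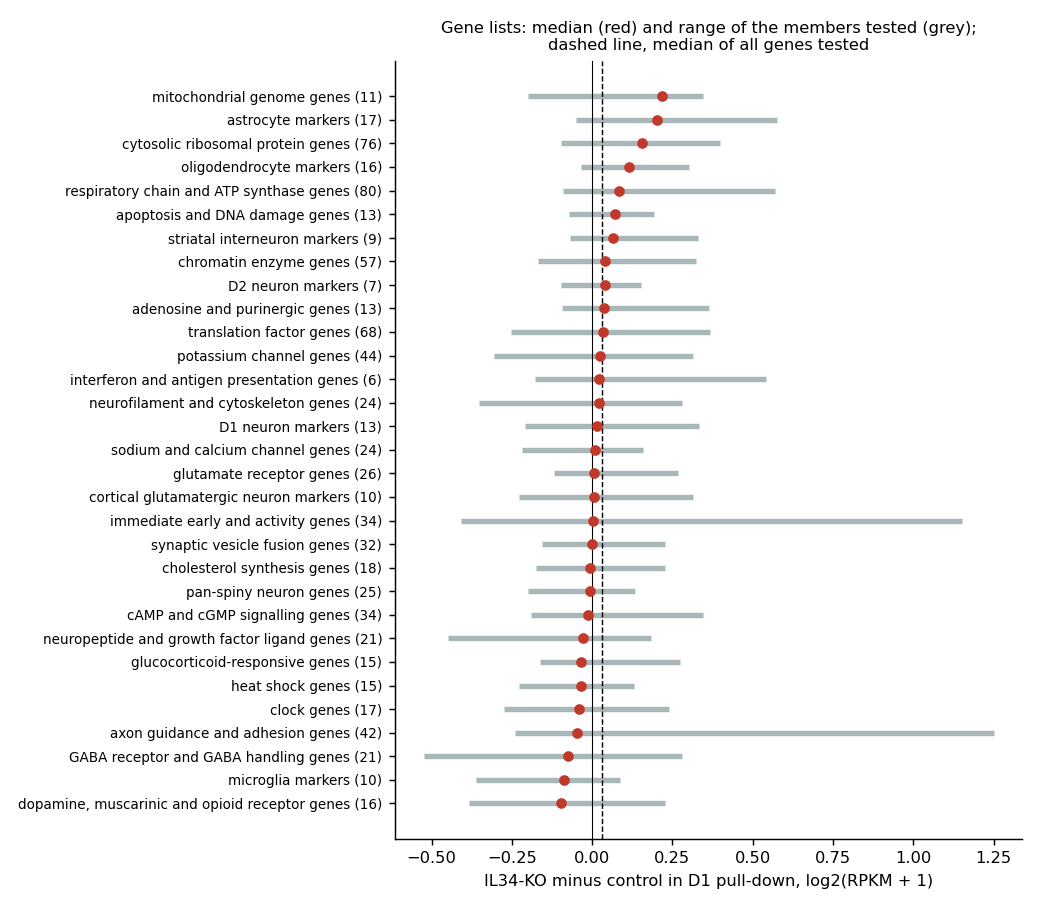
Median (red) and range (grey) of IL34-KO minus control in the D1 pull-down, on the log2(RPKM + 1) scale, for each list with at least 5 genes tested, whose number stands in brackets. Medians run from -0.10 for dopamine, muscarinic and opioid receptor genes to 0.22 for mitochondrial genome genes, beside a median of 0.03 for all genes (dashed). Flrt2, in the axon guidance and adhesion list, is the highest value of any list shown.

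Markers of microglia, the cells that carry the Il34 receptor, were at low levels in the D1 pull-down. The 30 listed summed to 33.9 to 42.9 RPKM in IL34-KO and 36.1 to 48.2 RPKM in control D1 libraries, and the ranges overlapped. Control unbound libraries had 96.6 to 110 RPKM. Between the control fractions, 19 of 22 markers were called lower in the pull-down, as were 6.83% of all genes. Another 3 were called higher, as were 84.7% of all genes. Whether D1 neurons express some of these markers was not tested. None of the 30 was at 0 in any library, and 18 to 21 of them were below 1 RPKM in IL34-KO and 19 to 21 in control D1 libraries. Of the 10 that could be tested, 8 were lower in IL34-KO and 0 were called, with a median of -0.09. The median was -0.18 without the first IL34-KO library and -0.28 without both libraries high in Slc17a7 and Neurod2, again with 8 of 10 lower. Ctss, a lysosomal protease of microglia, had 4.50, 3.23 and 2.11 RPKM in IL34-KO libraries, against 3.23, 3.94, 3.51 and 3.6 RPKM in control libraries (-0.13 ± 0.17).

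In unbound striatum the markers of microglia leaned lower in IL34-KO. Their sum was 89.6, 65.9, 47.0 and 69.5 RPKM in IL34-KO libraries, against 98.0, 110, 96.6 and 103 RPKM in control libraries, without overlap. All 23 tested were lower, with a median of -0.51 beside -0.03 for all genes, of which 69.8% were lower. Of the 23, 20 had an unadjusted p under 0.05, as did 0.731% of all genes in that direction. Every IL34-KO library was below every control library for 12 of the 23, as for 0.69% of all genes. None was called at an adjusted p under 0.05, limma calling 0 of 9853 genes in this fraction, with 87 (0.883%) at an unadjusted p under 0.05 and 0 by voom on recovered reads. With libraries weighted by their fit, 27 genes were called lower, 19 of them among these 23. The lowest weight (0.255) went to the first IL34-KO library, whose sum was the highest of its group. The highest weight (4.15) went to the second control library, whose sum was the highest of all. The 19 calls depend on these weights, which favour a wider gap in this sum. P2ry12, the receptor that steers microglial processes, had 3.89, 2.65, 1.74 and 3.71 RPKM in IL34-KO unbound libraries, against 5.99, 6.16, 4.999 and 6.23 RPKM in control unbound libraries, without overlap (-0.81 ± 0.16, adjusted p of 0.678). Csf1r had 2.45, 1.75, 1.39 and 1.76 RPKM in IL34-KO and 2.501, 3.23, 2.92 and 3.17 RPKM in control unbound libraries, again without overlap (-0.49 ± 0.11). In bulk RNA, fewer cells and less RNA per cell cannot be told apart. The third IL34-KO unbound library, whose Eya1 level stood apart, had the lowest sum. Without it, 23 of 24 markers were lower, with a median of -0.39.

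The difference between the fractions was not called for any gene. The fit treated its 15 libraries as unpaired, since the columns do not tie an unbound library to a pull-down. Ignoring a pairing can change the error of this difference. Of 10266 genes tested, limma called 0, with 100 (0.974%) at an unadjusted p under 0.05, and voom on recovered reads called 0. All 16 microglia markers that could be tested had a positive difference, with a median of 0.40 for pull-down minus unbound, beside 0.06 for all genes, 69% of which had a positive difference, and 6 had an unadjusted p under 0.05. Most microglia markers listed were below 1 RPKM in each D1 library, where log2(RPKM + 1) understates a change. These values therefore cannot tell whether the proportional change differed between the fractions.

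**Figure D5:**
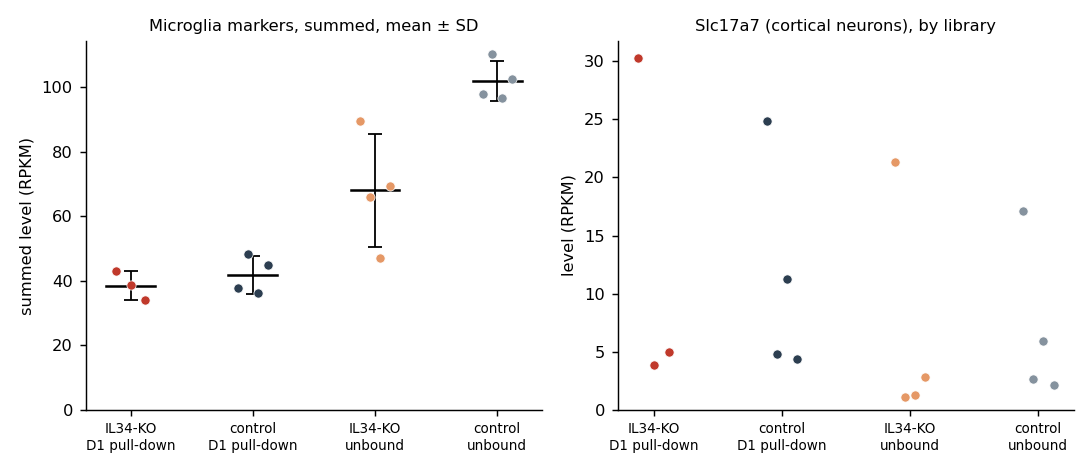
Summed level of 30 microglia markers (left, mean ± SD) and level of Slc17a7, a marker of cortical neurons (right), in RPKM, with 1 point per library. Microglia markers are at 47.0 to 89.6 RPKM in IL34-KO and 96.6 to 110 RPKM in control unbound libraries, and Slc17a7 is high in 1 library of each group.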

How the data were processed

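The deposited table holds RPKM per gene and library, calculated by the authors, for 15 libraries of the D1 line. Per the submitters' processing notes, the tools were HTSeq 0.6.0, TopHat2 2.1.0, DESeq2 and bcl2fastq, of unstated roles, and the build was mm9. The annotation and gene lengths are not given in the sources used here. Per the labels' protocols, RNA was amplified with the NuGEN Ovation V2 kit, a step that can shift levels of single genes. Columns carry group names without replicate numbers, so a library's number is only its place within its group.

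All 22380 lines were read. Whole reads were recovered from the steps between RPKM values and came out whole within 0.001 reads for 100% of 18102 genes above 0 in 2 or more libraries. No molecular identifiers were counted, so depth covers counting error only. Fits used limma 3.58.1 in R 4.3.3 (lmFit, eBayes with trend) on log2(RPKM + 1), which understates changes of low genes. Genes needed a mean of 1 RPKM over the libraries of a fit. A gene was called where its two-sided p, adjusted after Benjamini and Hochberg, was under 0.05. Sex by Ddx3y used a limit of 1 RPKM. The test was tested on simulated data. Alternatives were other pseudocounts, filters, scalings, weights, voom, a sex term and libraries left out.

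Named genes were up to 12 called in each direction with at least 2 RPKM, the 3 lowest unadjusted p of every list, and fixed markers. Members of 38 lists were counted. Marker genes, members and lists were chosen with earlier results of these data known. Gene symbols are those of the table, and 92.8% of identifiers matched a present symbol. The files use mm9 and the reference GRCm38, so no coordinates are given.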

Additional observations from a re-analysis of the deposited data

Results flagged for a closer look

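Among 115 named genes, 8 had 1 of the 4 control D1 libraries far from the other 3, and chance sets a library apart in about 1 in 20 groups. In the first control library Ppp1r1b was low at 436 RPKM (the others 634 to 664), Clu low at 15.9 RPKM (18.4 to 18.8), Hdac5 low at 7.57 RPKM (11.6 to 12.4) and Cacnb4 high at 110 RPKM (89.2 to 92.3). In the second, Gabrb1 was high at 9.91 RPKM (7.87 to 8.11), Ifi27l1 at 4.00 RPKM (3.12 to 3.24) and Nefh at 11.6 RPKM (9.42 to 9.57). In the fourth, Npas4 was high at 6.57 RPKM (0.645 to 1.22). The first control library is also the one high in Slc17a7 and Neurod2, and its part in these values was not tested.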

How the results depend on the processing

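The number of genes called between IL34-KO and control D1 libraries was 1 in the reported test. It was 0 without a filter on low values (Flrt2 adjusted p of 0.441 over 18361 genes) and 0 without both libraries high in Slc17a7 and Neurod2, a step chosen after seeing the data. Leaving out 1 library at a time gave 0 to 1. Pseudocounts of 0.1 and 5, a mean of 5 RPKM, quantile and median-ratio scaling, weights, voom, a sex term (also chosen after seeing the data) and a fit of 15 libraries kept Flrt2 as the call, with adjusted p of 0.00551 to 0.0410. In unbound RNA the count of 0 became 27 with array weights, which gave the first IL34-KO library a weight of 0.255 and the second control library 4.15, and 0 to 1 with 1 library left out. The difference between fractions gave 0 throughout. Of the values of named genes under these alternatives, 1856 stayed within their standard error or on their side of the threshold, 119 moved further, and 7 were Flrt2 without its call. Of the medians of the gene lists, 338 stayed within the standard error over the list's members and 215 moved further. No paired analysis was possible because the columns carry no replicate numbers.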
